A study of Mus musculus with 100 samples.

Results

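NCoR binding to chromatin was compared between macrophages given an ERK inhibitor (ERKi) and KLA and macrophages given KLA alone. The members were the peaks of 1 merged NCoR table, taken as the authors deposited them: 57573 peaks counted in 2 libraries of the ERKi and KLA group and 2 of the KLA group, of 100 samples in the series. Of these peaks, 57543 held at least 4 tags (aligned reads, at most 3 per position) in 1 library or more and were tested.

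The cells were bone marrow-derived macrophages (BMDMs) of wild-type C57BL/6 mice, and KLA is Kdo2 lipid A, a lipopolysaccharide component that activates Toll-like receptor 4 (TLR4). The KLA group received KLA for 6 h. The ERKi group received KLA and an ERK inhibitor, named in the study's methods as LY3214996, and its labels give no time. Those methods give 6 h for KLA, with the inhibitor added at the serum starvation before it. A vehicle group (Veh) of 2 libraries was counted over the same peaks and is given beside the others. Regions of the histone mark H3K27ac, used further below, came from other libraries, in which wild-type and NCoR-knockout (NKO) macrophages were fitted together. All NCoR libraries came from cells fixed with disuccinimidyl glutarate and then formaldehyde. The file headers give the KLA and Veh libraries one library date and the ERKi libraries another, later by some months, so that inhibitor, library date and any solvent of the inhibitor cannot be told apart. BMDMs are grown from marrow in culture, and the labels give neither the sex of the mice nor whether replicates shared an animal, so p-values measure the spread between these samples only.

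NCoR is a nuclear corepressor that holds histone deacetylase 3 (HDAC3) on chromatin through sequence-specific factors such as unliganded nuclear receptors. ERK1 and ERK2 are kinases at the end of the MAP kinase cascade that TLR4 switches on, and their substrates include factors of the AP-1 family. PGC1β is a transcriptional coactivator that the study placed in a complex with NCoR and HDAC3 in stimulated macrophages, and the inhibitor experiment asked whether NCoR stays at its sites when ERK is blocked.

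The libraries held 11.6 to 14.5 M tags. Of these, 34.2% and 33.3% lay in peaks in the KLA libraries but 15.8% and 15% in the ERKi libraries, and a median peak held 48 and 56 tags against 21 and 20. Pearson's r of log2 tags over all peaks, which are not independent replicates, was 0.934 between the KLA replicates, 0.776 between the ERKi replicates and 0.677 between the groups. The median peak was therefore 2.31-fold lower with ERKi when tags were scaled by library totals alone. All differences below are log2 values relative to the median of all peaks, which removes this 1.21 log2 shift, and levels of the ERKi libraries are given multiplied by 2.31 unless marked as not centred. A uniform loss of NCoR and a lower share of tags in peaks would look alike and were removed together. All 10 macrophage markers on a list of cell type genes (among them Csf1r, Spi1 and Lyz2) had NCoR peaks, with summed levels of 7632 and 6890 tags per 10 M over 92 peaks in the KLA libraries and 7347 and 6902 in the ERKi libraries, after centring. Of these 92 peaks, 5 were called higher and 6 lower. Of 5 osteoclast markers (Acp5, Ctsk, Calcr, Ocstamp and Dcstamp) 4 had a peak, and their 17 peaks summed to 1111 and 1037 tags per 10 M with KLA and 1463 and 1328 with ERKi. Among the 17, 3 were called higher, all at Acp5, and 0 lower. Over all tested peaks 5.15% were called higher and 4.3% lower. Of 5 markers each, 2 neutrophil, 3 T cell, 2 B cell and 1 fibroblast gene had a peak. The B cell peaks summed to 1081 and 1076 with KLA and 1287 and 991 with ERKi, and the fibroblast peaks to 382 and 432 with KLA and 516 and 560 with ERKi, with 1 peak called higher in each list. The part of such cells in the results was not tested.

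The 3 peaks on the male-specific part of the Y chromosome separated the groups completely. In an intron of Uty (chrY:1163170-1163394, mm10) the KLA libraries held 40 and 52 tags, in a second intronic Uty peak (chrY:1165617-1165842) 48 and 77, and at the promoter of Ddx3y (chrY:1286456-1286681) 23 and 26. Both ERKi libraries held 0 tags at all 3, which puts them at least 11.5-, 15.6- and 6.18-fold lower for a floor of 3 tags over the group. The Veh libraries held 10 to 74 tags at these peaks. In Erdr1, on the pseudoautosomal part that both sex chromosomes carry, the KLA libraries held 48 and 57 tags and the ERKi libraries 30 and 18, a log2 difference of 0.27. Male-specific chromatin was therefore seen in the KLA and Veh libraries and not in the ERKi libraries, and animal sex is a further factor that cannot be told apart from the inhibitor. Chromosome X had a median difference of -0.10 over 1255 peaks, and autosomal peaks alone gave 2947 higher and 2449 lower calls.

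Windows of 200 bases from the centres of the most clearly changed peaks are shown because the higher and lower groups differed in base composition and in motifs. They are plus-strand reference sequences of mm10, and capitals mark matches to the AP-1 motif (TGANTCA) or the C/EBP motif (TTGCNNAA) on either strand. The first 3 windows are from peaks that rose and the other 3 from peaks that fell, each the intron of a gene.

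Hk2 (chr6:82753153-82753352): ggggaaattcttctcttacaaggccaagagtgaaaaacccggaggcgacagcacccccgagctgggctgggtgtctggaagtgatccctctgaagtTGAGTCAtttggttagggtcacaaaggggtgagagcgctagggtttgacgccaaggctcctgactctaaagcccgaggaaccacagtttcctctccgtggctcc

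Asap1 (chr15:64220173-64220372): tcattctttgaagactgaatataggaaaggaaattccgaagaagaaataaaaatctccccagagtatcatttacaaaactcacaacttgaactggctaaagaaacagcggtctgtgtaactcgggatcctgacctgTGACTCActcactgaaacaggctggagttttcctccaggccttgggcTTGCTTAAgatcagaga

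Rara (chr11:98942480-98942679): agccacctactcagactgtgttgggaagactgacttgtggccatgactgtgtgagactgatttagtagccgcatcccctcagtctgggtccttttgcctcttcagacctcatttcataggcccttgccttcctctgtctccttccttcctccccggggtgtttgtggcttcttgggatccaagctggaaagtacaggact

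St6gal1 (chr16:23314823-23315022): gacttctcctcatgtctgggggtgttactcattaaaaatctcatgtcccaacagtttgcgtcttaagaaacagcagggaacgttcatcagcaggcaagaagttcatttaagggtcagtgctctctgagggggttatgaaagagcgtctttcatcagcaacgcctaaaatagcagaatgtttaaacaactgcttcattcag

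Tpm4 (chr8:72139443-72139642): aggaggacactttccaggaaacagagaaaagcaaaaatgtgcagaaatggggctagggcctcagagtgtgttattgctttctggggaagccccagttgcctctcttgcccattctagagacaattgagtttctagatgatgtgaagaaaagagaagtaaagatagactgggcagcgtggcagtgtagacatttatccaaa

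Sycp3, in an intron of Gnptab (chr10:88441303-88441502): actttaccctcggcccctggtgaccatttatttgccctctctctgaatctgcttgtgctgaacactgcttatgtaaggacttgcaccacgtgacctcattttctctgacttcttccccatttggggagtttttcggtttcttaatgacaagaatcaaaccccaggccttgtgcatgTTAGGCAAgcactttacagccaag

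The Hk2 window held 1 AP-1 match and the Asap1 window 1 AP-1 and 1 C/EBP match. Of the 3 windows of peaks that fell, the Sycp3 window held 1 C/EBP match and none held an AP-1 match.

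Peaks differed between the groups in both directions. With ERKi, 5439 of the 57543 tested peaks (9.45%) differed by more than 2-fold at an adjusted p under 0.05 (edgeR quasi-likelihood test, Benjamini-Hochberg), of which 2963 were higher (5.15%) and 2476 lower (4.3%). The called peaks differed by a median of 3.27-fold upward and 4.25-fold downward, and the latter was the same with the 213 lower peaks without a tag in either ERKi library set at the bound of the 3-tag floor. The replicates of the groups did not overlap at 59.2% of all tested peaks, so separation of 2 against 2 libraries is no sign of a change by itself. The merged table holds peaks that entered it through any of the 3 groups, the compared ones included, so a peak found in 1 group was already likely to be high there. Of the 2476 lower peaks, 1274 had been called by the authors in KLA alone and 815 in Veh and KLA. Of the 2963 higher peaks, 994 had been called with ERKi alone and 266 in Veh and ERKi. Among the 15721 peaks called in all 3 groups, 950 were higher (6.04%) and 257 lower (1.63%), with a median of 0.19. On library totals without centring, 495 peaks were higher (0.86%) and 30417 lower (52.9%). All 2476 lower calls and 494 of the 2963 higher calls also held on that scale. Without 1 KLA library the calls dropped to 957 or 772, and without 1 ERKi library they rose to 12811 or 13131.

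**Figure D1:**
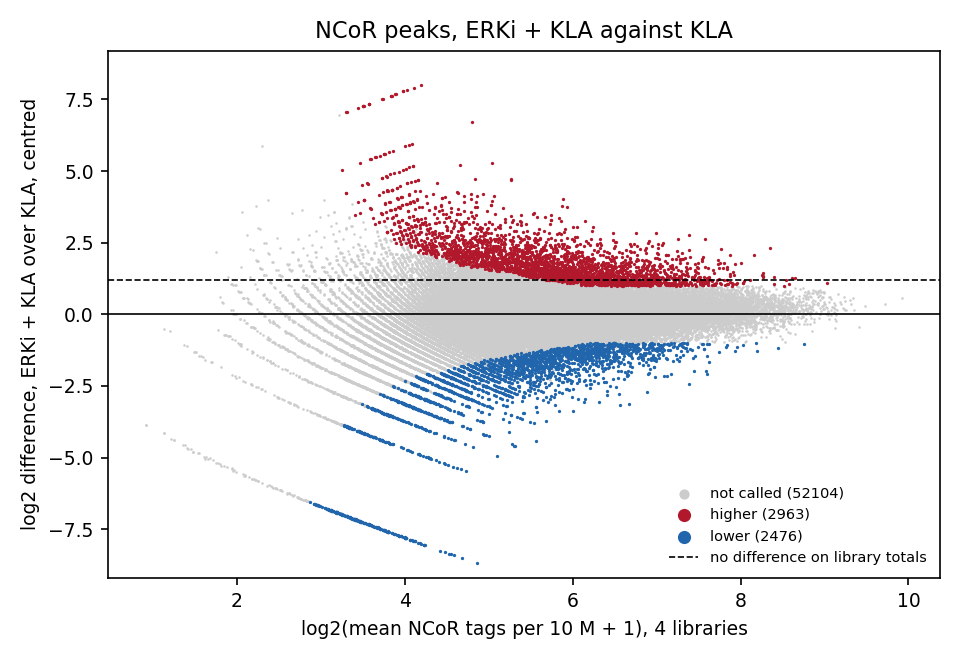
Each point is an NCoR peak, with the log2 of its mean tags per 10 M plus 1 over the 4 libraries on the x axis and its centred log2 difference (ERKi and KLA over KLA) on the y axis. The 2963 higher peaks are red and the 2476 lower peaks blue, and the dashed line at 1.21 marks where a peak shows no difference on library totals, above which a peak held more tags with ERKi on both scales.

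Among the 8 higher peaks with the lowest p were sites at genes of glucose handling, nuclear receptor signalling and adhesion. At an intronic site of Hk2 (chr6:82753103-82753404), the gene of hexokinase 2, which catalyses the first step of glycolysis, the KLA libraries held 104 and 113 tags per 10 M, the ERKi libraries 577 and 504 after centring and the Veh libraries 125 and 108. Both ERKi libraries were far above all 4 others, with a log2 difference of 2.31 (SE 0.16, adjusted p = 0.000606, edgeR). Without centring the ERKi libraries held 249 and 218, and the peak was still higher by 1.10 (adjusted p = 0.000329, edgeR).

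In an intron of Asap1 (chr15:64220028-64220519), which encodes a GTPase-activating protein of Arf proteins, tags per 10 M were 41.3 and 44.3 with KLA, 309 and 273 with ERKi and 32.3 and 56.5 with Veh. NCoR rose there by 2.76 (SE 0.21, adjusted p = 0.000709, edgeR). In an intron of Rara, the gene of retinoic acid receptor α, a nuclear receptor that binds NCoR when it has no ligand, levels were 51.0 and 53.3 with KLA and 372 and 281 with ERKi, a rise of 2.64 (SE 0.21, adjusted p = 0.000913, edgeR). The Veh libraries held 94.4 and 126 at Rara, between KLA and the centred ERKi levels. Without centring the ERKi libraries held 161 and 122 there, above KLA by 1.43 but in a range that overlapped that of Veh.

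The site upstream of Itgav (chr2:83714821-83715069), the gene of integrin αV, had lost NCoR under KLA relative to Veh and held more with ERKi. Its levels were 522 and 565 with Veh, 90.7 and 87.8 with KLA and 330 and 429 with ERKi, which was 2.09 above KLA (SE 0.19, adjusted p = 0.00137, edgeR). Usp19 (a deubiquitinase gene) rose by 2.83 (SE 0.25), Gm1653 by 2.29 (SE 0.20), 1700042G07Rik by 2.20 (SE 0.21) and Atp2b4, the gene of a plasma membrane calcium pump, by 2.07 (SE 0.17), with adjusted p-values of 0.000949 to 0.00139 (edgeR). All 8 kept their call when the median was taken within classes of GC content.

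Among the 8 lower peaks with the lowest p, most had gained NCoR with KLA. In an intron of Tpm4 (chr8:72139430-72139656), a tropomyosin gene, the Veh libraries held 0 and 2.35 tags per 10 M, the KLA libraries 185 and 177 and the ERKi libraries 27.4 and 14.0. The difference was -3.12 (log2, SE 0.32, adjusted p = 0.00151, edgeR), with both ERKi libraries still above Veh.

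St6gal1, the gene of a sialyltransferase, had another order of levels than Tpm4. Its intronic peak (chr16:23314811-23315035) was highest with Veh (607 and 647), lower with KLA (331 and 293) and lowest with ERKi (80.2 and 67.8), a difference of -2.07 against KLA (SE 0.20, adjusted p = 0.00139, edgeR). The peak nearest to Sycp3, which lies in an intron of Gnptab, had 65.7 and 60.0 tags per 10 M with Veh, 235 and 228 with KLA and 50.8 and 57.8 with ERKi (log2 -2.09, SE 0.22). Others were nearest to Dpt (-3.15), 1110051M20Rik (-2.44), 1700016G22Rik (-1.99) and Lilra6 (-1.96), and all 8 lower peaks kept their call within GC classes.

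**Figure D2:**
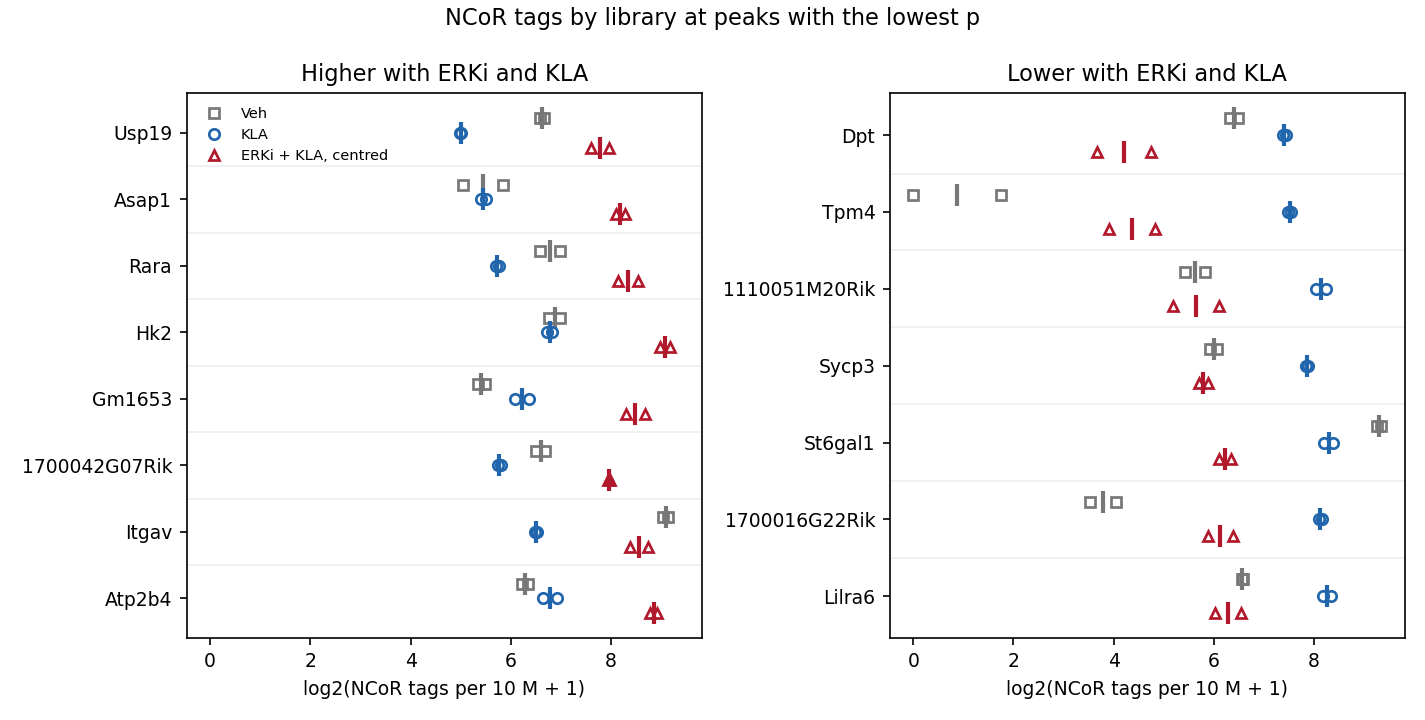
NCoR tags per 10 M plus 1 (log2, x axis) at the 8 higher and 7 of the 8 lower peaks with the lowest p. Open symbols are single libraries (squares Veh, circles KLA, triangles ERKi and KLA after centring) and vertical ticks are group means, and at each of these peaks both ERKi libraries lie outside the range of the KLA libraries.

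Over all called peaks the Veh levels differed between the directions. Called lower peaks had median levels of 27.9 tags per 10 M with Veh, 58.6 with KLA and 13.8 with ERKi, whereas called higher peaks had 31.5, 24.6 and 79.0. Peaks that were not called held 38.5, 38.6 and 39.6. The KLA libraries enter both steps, so a KLA value that lay high or low by chance moves them in opposite ways, and no overlap between the KLA and the ERKi effects was tested. By nearest gene, 3655 genes had a called peak and 1099 had at least 2. Of these 1099, 418 had higher peaks alone, 309 lower peaks alone and 372 both.

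The base composition of a peak went with its difference. Peaks with less than 36% GC had a median of -0.51, with 10.3% called lower and 1.86% higher, and the median rose through the classes to 0.33 for peaks with 52 to 60% GC, of which 8.90% were called higher and 1.47% lower. Above 60% GC the median was 0.24. The 7029 peaks that the authors' HOMER annotation marks as promoters had a median GC content of 61.9% and a median of 0.26, with 4.79% called higher and 1.04% lower. Within GC bins their median was 0.06, with 2.28% higher and 1.18% lower. Intronic (-0.05) and intergenic (-0.05) peaks lay close to the median. When the median was taken within bins of 2 GC points, 2513 peaks were higher (4.37%) and 1912 lower (3.32%), and 3805 of the 5439 calls, or 70.0%, remained in the same direction. The groups' share of tags in peaks, date and GC dependence moved together, and their part in single calls was not tested.

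**Figure D3:**
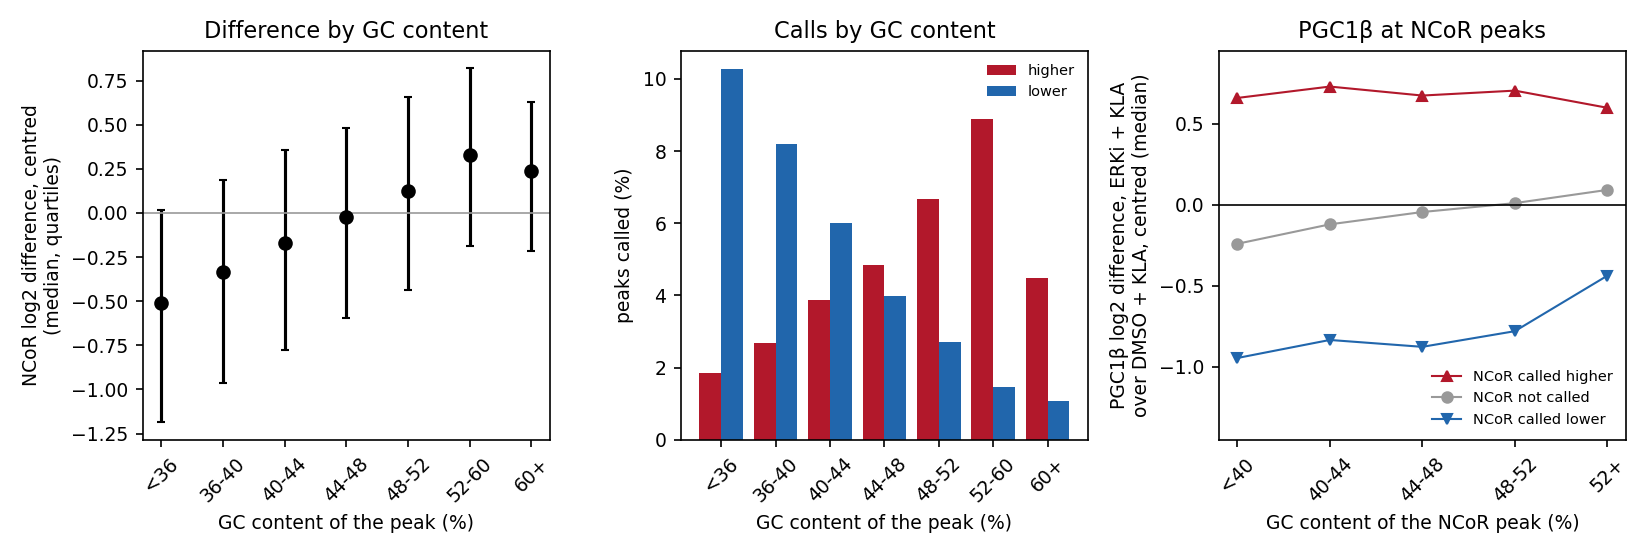
The left plot gives the median centred log2 difference of NCoR peaks (bars are quartiles) and the middle plot the percent called higher (red) or lower (blue), both by GC content of the peak in percent, and the median rises from -0.51 to 0.33 before the last class. The right plot gives the median PGC1β log2 difference at the same sites, where NCoR-higher peaks lie between 0.60 and 0.73 and NCoR-lower peaks between -0.95 and -0.44 in every GC class.

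Motifs differed between the peaks that rose and fell. Of the higher peaks 994 had been called with ERKi alone, and of the lower ones 1274 in KLA alone. The shares therefore also compare peaks by the group that brought them in. Motif shares among the peaks called in all 3 groups were not tested. The AP-1 motif TGANTCA, the site of Fos and Jun dimers, was in 29.4% of the windows of higher peaks, 12.0% of those of lower peaks and 21.2% of all 57536 windows of 200 bases on reference chromosomes (both strands searched throughout). The C/EBP motif TTGCNNAA was in 9.31% of higher, 25.1% of lower and 15.9% of all windows. Among peaks with 44 to 48% GC the shares were 33.4%, 10.6% and 23% for AP-1 and 8.87%, 21.3% and 17.1% for C/EBP. In the class of 60% GC or more, which held 58 lower peaks, the order of C/EBP turned (6.15% of higher and 5.17% of lower windows) and AP-1 was at 9.84% and 8.62%.

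The ETS-IRF composite motif (GGAA and TGAAA with any 1 base between them), which PU.1 binds with IRF4 or IRF8, was in 1.01% of higher, 7.31% of lower and 3.38% of all windows. The NFκB motif (GGGA and TTCC with any 2 bases between them) was in 4.35% of higher, 1.53% of lower and 2.13% of all windows, and the STAT motif TTCCNGGAA in 2.09%, 0.525% and 1.06%. At 60% GC or more the order of NFκB turned as well, with 4.10% of higher and 5.17% of lower windows. The PU.1 motif GAGGAAGT, the site of the macrophage lineage factor, was in 8.10% of higher and 8.89% of lower windows, both below the 10.4% of all windows. The GC box GGGCGG was in 11.9% of higher and 3.76% of lower windows, and at 60% GC or more in 58.6% and 74.1%, the opposite order. Motifs may overlap one another in a window, and a match is a string of letters, not a measured site.

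Peaks with AP-1 and without C/EBP had a median difference of 0.18 (10454 peaks, 7.67% higher and 2.15% lower). With C/EBP and without AP-1 it was -0.25 (7376 peaks, 2.79% higher and 7.44% lower), and with both it was -0.01 (1771 peaks). Peaks with AP-1 and NFκB motifs together had a median of 0.34 (211 peaks, 13.3% higher), and those with C/EBP and ETS-IRF a median of -0.45 (281 peaks, 12.5% lower). Within GC bins these 5 medians were 0.20, -0.17, 0.06, 0.26 and -0.34.

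**Figure D4:**
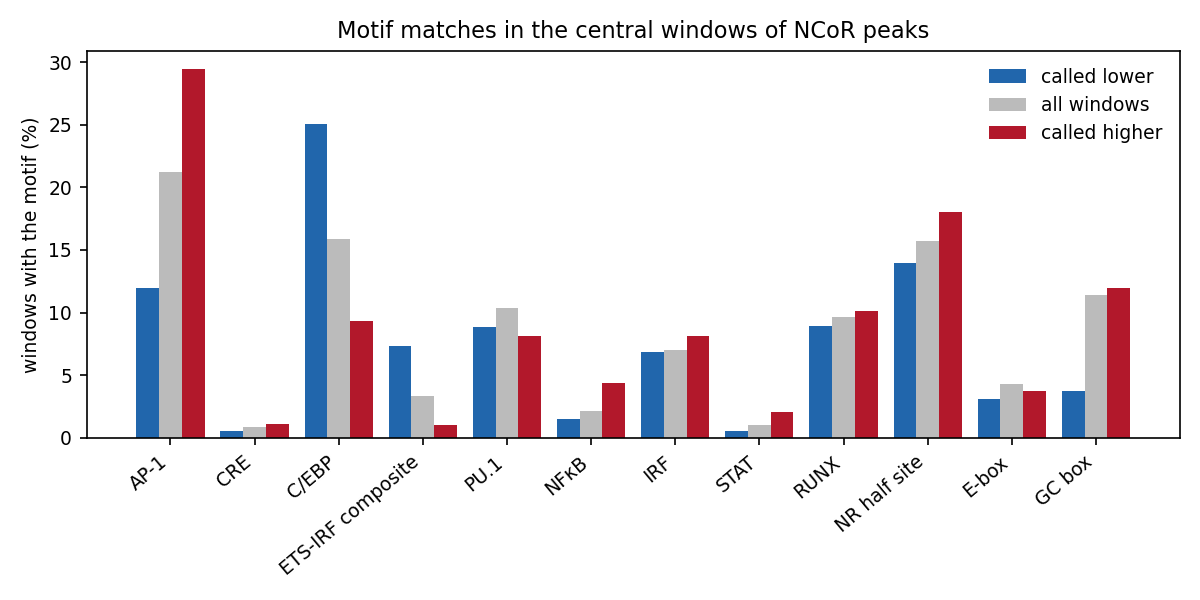
Percent of 200-base windows with at least 1 match (y axis) for 12 motifs (x axis), for peaks called lower (blue), all windows (grey) and peaks called higher (red). AP-1 is at 29.4% in higher and 12.0% in lower windows, and C/EBP at 9.31% and 25.1%.

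NCoR peaks were then grouped by how other regions within 500 bp had changed with KLA against Veh in other libraries of the series (more than 2-fold at an adjusted p under 0.05, edgeR). Of all regions tested, HDAC3 was gained at 27.4% and lost at 11.3%, PGC1β at 16.4% and 6.45%, ERK1 at 10.2% and 2.61%, p300 at 42% and 12.9%, p65 at 56.8% and 5.5%, Fosl2 at 11.2% and 3.88%, PU.1 at 4.53% and 21.7% and H3K27ac at 6.47% and 3.75%. Where HDAC3, the deacetylase that NCoR carries, was gained with KLA, the median NCoR difference with ERKi was -0.22 over 12525 peaks, with 3.26% higher and 8.18% lower. Where HDAC3 was lost, the median was 0.29 over 5618 peaks, with 10.2% higher and 1.98% lower. Within GC bins these medians were -0.10 and 0.21. The HDAC3 libraries have the same date as the NCoR KLA libraries, and whether they share cells is not in the labels.

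The same order held at sites of 6 other factors. At gained sites the medians were -0.14 for PGC1β (6955 peaks), -0.10 for ERK1 (2652), -0.12 for p300 (18226), a histone acetyltransferase, -0.09 for the NFκB subunit p65 (24166), -0.12 for the AP-1 factor Fosl2 (3544) and -0.22 for PU.1 (2268). At lost sites they were 0.22, 0.23, 0.15, 0.23, 0.24 and 0.19. Within GC bins the 6 medians at gained sites were -0.01, 0.01, -0.03, -0.02, 0.00 and -0.08, against 0.13, 0.17, 0.05, 0.06, 0.13 and 0.10 at lost sites. With library totals alone the medians at lost sites were all negative. Peaks that entered the merged set by a call in KLA alone had a median of -0.48, and those called in Veh alone one of 0.25. Whether the order of gained and lost sites holds among the peaks called in all 3 groups was not tested.

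Sites that gained H3K27ac, a mark of active enhancers and promoters, with KLA did not follow that order. At the 1206 NCoR peaks within 500 bp of both an H3K27ac-gained region and an HDAC3 peak, the kind of site the study was about, the median difference was 0.25, with 5.97% higher and 1.41% lower, and each library's median relative to the mean of the KLA group was 0.02 and -0.02 with KLA and 0.26 and 0.26 with ERKi (replicate SD 0.017). Within GC bins the median was 0.12. On library totals it was -0.95, so NCoR tags at these sites were fewer with ERKi but fell less than at the median peak. The study reported that NCoR, but not PGC1β, was markedly reduced with ERKi over its own set of such sites. It scaled ChIP signal by sequencing depth and defined its set otherwise than the 1206 peaks here. The -0.95 on library totals, not the centred 0.25, is on a scale like that of the study. All 14845 NCoR peaks near an H3K27ac region, changed with KLA or not, had a median of 0.18, with 4.86% higher and 1.84% lower, of 0.04 within GC bins and of -1.03 on library totals. H3K27ac-lost regions had a median of 0.09 over 625 peaks.

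**Figure D5:**
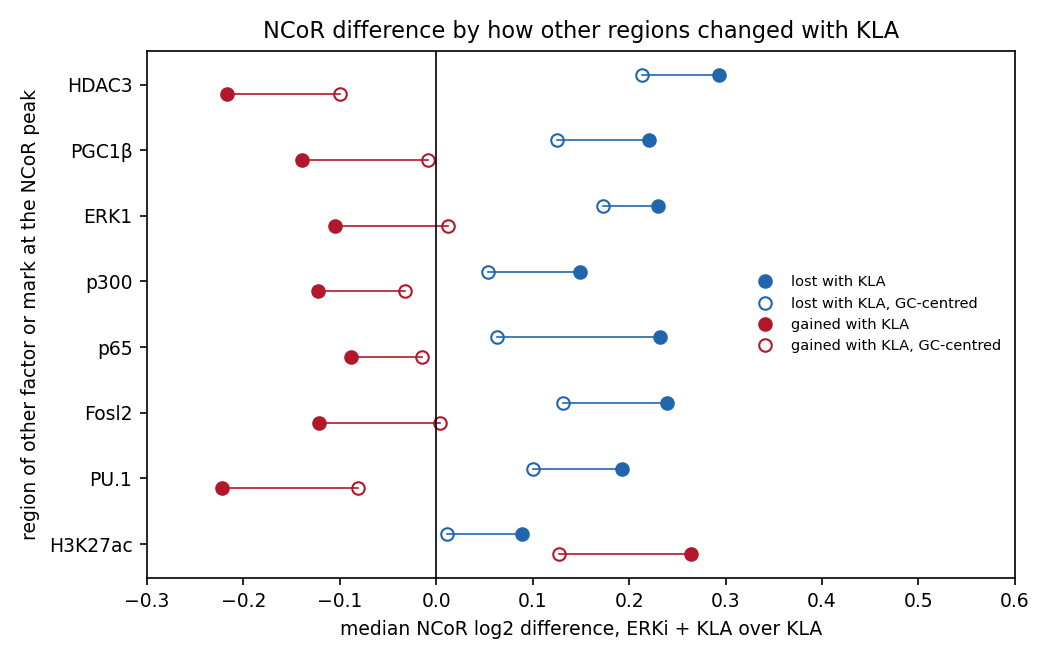
Median log2 difference of NCoR (x axis, ERKi and KLA over KLA) at peaks within 500 bp of a region gained (red) or lost (blue) with KLA for 8 factors or marks (y axis), centred on all peaks (filled) or within GC bins (open). For the 7 factors the lost sites lie above the gained sites, as with HDAC3 at 0.29 and -0.22, and for H3K27ac the gained sites lie above, at 0.26 and 0.09.

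Among genes of the TLR4 response, the cytokines and chemokines had the largest share of higher peaks. Of 229 peaks nearest to 26 of 27 listed genes, 31 rose (13.5%) and 5 fell (2.18%), with a median of 0.32 and a median within GC bins of 0.28. Over all tested peaks the shares were 5.15% and 4.3%, the background for this and every list below. Taking the strongest peak of each gene alone, 1 rose and 1 fell, where 607 of 13168 genes overall (4.61%) had a strongest peak that rose and 526 (3.99%) one that fell. The peaks of the next paragraphs other than the strongest of a gene were chosen after their values were seen.

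At the promoter of Cxcl1 (chr5:90891078-90891311), the gene of a neutrophil-attracting chemokine, both Veh libraries held 0 tags, the KLA libraries 3.24 and 9.68 tags per 10 M and the ERKi libraries 97.8 and 122 after centring. NCoR rose by 4.02 there (SE 0.47, adjusted p = 0.00224, edgeR) and by 2.82 without centring, with 42.3 and 52.6 tags per 10 M in the ERKi libraries. Cxcl1 had 6 higher peaks in all. Upstream of Ccl5 (chr11:83534701-83535047), the strongest peak of another chemokine gene, levels were 58.5 and 63.6 with Veh, 245 and 212 with KLA and 555 and 480 with ERKi, a rise of 1.18 (SE 0.15, adjusted p = 0.00327, edgeR). Without centring that peak did not differ (-0.03).

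NCoR also rose upstream of Csf2, the gene of GM-CSF, from 52.6 and 52.6 to 219 and 156 tags per 10 M (1.83, SE 0.25, adjusted p = 0.00372, edgeR), and upstream of Ccl4, from 38.9 and 45.7 to 176 and 146 (1.92, SE 0.26, adjusted p = 0.00367, edgeR). Il12b, which encodes the shared subunit of IL-12 and IL-23, had 3 higher peaks, the strongest of them at 96.4 and 120 with KLA and 370 and 295 with ERKi (1.61, SE 0.19). Without centring these Csf2, Ccl4 and Il12b peaks differed by 0.62, 0.71 and 0.40 and were not called. Il6 had peaks in both directions. The site at -137419 bases from the start rose by 2.39, and those at -92630 and -38965 bases fell (-1.46 and -2.76), the last from 56.7 and 65 to 7.82 and 9.97 with 0 in both Veh libraries.

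The 3 genes the study followed most closely did not rise. At the strongest Ptgs2 peak (chr1:150099841-150100114), the promoter of the cyclooxygenase 2 gene, the Veh libraries held 46.6 and 44.7 tags per 10 M, the KLA libraries 165 and 158 and the ERKi libraries 158 and 104. The ranges overlapped slightly, and the difference of -0.30 (SE 0.23, adjusted p = 0.413, edgeR) did not pass the test. Upstream of Cp (chr3:19953873-19954276), the gene of the iron-handling protein ceruloplasmin, levels were 305 and 249 with KLA and 244 and 191 with ERKi (-0.34, SE 0.19, adjusted p = 0.24, edgeR). The Cp peak in the 5' UTR fell from 192 and 209 to 86.0 and 102 (-1.09, SE 0.21, adjusted p = 0.0114, edgeR), a call that was lost within GC bins. Upstream of Il12a, which encodes the second IL-12 subunit, levels were 233 and 174 with KLA and 168 and 130 with ERKi (-0.45, SE 0.22, adjusted p = 0.199, edgeR). Of 22 peaks at these 3 genes 0 were called higher and 1 lower, with a median of -0.34. Without centring the differences at the strongest peaks were -1.51 (Ptgs2), -1.55 (Cp) and -1.65 (Il12a). The adjusted p-values were then 0.000415, 0.000151 and 0.000224 (edgeR).

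The strongest Tnf and Il1b peaks, both at promoters of early cytokine genes, passed no 2-fold call. Tnf had 215 and 248 tags per 10 M with KLA and 284 and 273 with ERKi (0.27, SE 0.16, adjusted p = 0.3, edgeR), a difference that turned to -0.15 within GC bins. Il1b had 216 and 194 with KLA and 317 and 349 with ERKi (0.70, SE 0.16, adjusted p = 0.0215, edgeR), below the 2-fold limit. Weaker peaks of both genes were called higher. In Tnf an intronic peak went from 42.9 and 61.6 to 127 and 161 (1.46, SE 0.28, adjusted p = 0.0117, edgeR), and upstream of Il1b 2 peaks rose by 1.41 and 1.44. Without centring these weaker peaks differed by 0.25 (Tnf), 0.21 and 0.23 (Il1b) and were not called. At the Mir155hg promoter, the host gene of miR-155, the Veh libraries held 1.19 and 0, the KLA libraries 330 and 329 and the ERKi libraries 239 and 251 (-0.43, SE 0.15, adjusted p = 0.0905, edgeR). Another Mir155hg peak, at -11770 bases from the start, fell from 68.8 and 63.6 to 23.5 and 27.9 (-1.36, SE 0.38, adjusted p = 0.0405, edgeR). In all, inflammatory effector genes had 9 higher and 4 lower of 143 peaks (6.29% and 2.80%), among them 2 higher peaks at Nlrp3, the inflammasome sensor gene, and 2 lower ones at Marco, a scavenger receptor gene.

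Among the NFκB genes, 16 of 266 peaks rose (6.02%) and 9 fell (3.38%), near the 5.15% and 4.3% of all tested peaks. The intergenic peak at -1276 bases from the start of Cyld, which encodes a deubiquitinase that restrains NFκB, rose from 51.0 and 45 to 151 and 175 tags per 10 M (1.76, SE 0.25, adjusted p = 0.00432, edgeR). Without centring the Cyld difference was 0.56 (adjusted p = 0.0687, edgeR). A peak upstream of Bcl3, an IκB-family gene, held 0.81 and 0 tags per 10 M with KLA and 31.3 and 75.8 with ERKi, which rests on 1 tag in the KLA libraries. Tnfaip2 had 5 higher peaks and no lower one. At Nfkb1 2 peaks rose and an intronic one fell from 171 and 205 to 90.0 and 37.9 (-1.55).

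The AP-1 and ATF genes had 22 higher (8.15%) and 3 lower (1.11%) of 270 peaks, with a median of 0.24 that was 0.10 within GC bins. Fos, an immediate early gene and AP-1 subunit, had 20 of 23 peaks above the median, 3 of them called higher. Its strongest peak held 380 and 334 tags per 10 M with KLA, 569 and 634 with ERKi and 462 and 571 with Veh (0.75, SE 0.14, adjusted p = 0.0104, edgeR), under the 2-fold limit. Fosl2, Junb, Jund, Mafk and Atf3 had 2 or 3 higher peaks each and no lower one. At an intronic peak of Batf the KLA libraries held 27.5 and 24.2 tags per 10 M and both ERKi libraries 0.

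The genes of the ERK feedback loop and immediate early response had 8 higher and 6 lower of 288 peaks (2.78% and 2.08%), both shares below those of all peaks. Dusp6, the gene of a phosphatase that dephosphorylates ERK, had 30 peaks, of which 0 were called higher and 1 lower. Its strongest peak held 350 and 415 tags per 10 M with Veh, 117 and 142 with KLA and 170 and 158 with ERKi (0.34, SE 0.21, adjusted p = 0.304, edgeR). The lower Dusp6 peak went from 39.7 and 36.7 to 0 and 5.98. A peak nearest to Etv4, an ETS factor gene, which lies in an intron of Dhx8, fell from 42.1 and 64.3 to 13.7 and 7.97 (-2.28, SE 0.52, adjusted p = 0.0206, edgeR), and a peak upstream of Spred1, which encodes a Ras and ERK pathway inhibitor, rose from 81.0 and 104 to 313 and 207 (1.48, SE 0.23, adjusted p = 0.0064, edgeR). Without centring the Spred1 difference was 0.27 (adjusted p = 0.309, edgeR).

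Interferon-stimulated genes had a median of 0.32 over 194 peaks and 0.30 within GC bins, with 12 higher (6.19%) and 2 lower (1.03%). The strongest peaks of the 34 genes had a median of 0.43, and none of them passed the call. At the promoter of Oasl1, an antiviral gene, levels were 11.9 and 17.7 with Veh, 124 and 134 with KLA and 246 and 231 with ERKi (0.89, SE 0.18, adjusted p = 0.0139, edgeR). Mx1 had 2 higher peaks. The upstream peak, at -12818 bases from the start, held 24.3 and 22.8 with KLA and 76.3 and 136 with ERKi (2.16, SE 0.37).

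Genes of glycolysis and of hypoxia-inducible factor 1 (HIF1) had 13 higher (11.2%) and 8 lower (6.90%) of 116 peaks. Hk2 had 16 peaks, of which 4 rose and 0 fell, with a median of 0.83. At Slc2a1, which encodes the glucose transporter GLUT1, levels at an intronic peak went from 72.9 and 63.6 with KLA to 168 and 179 with ERKi (1.35, SE 0.22, adjusted p = 0.00746, edgeR), where Veh had 75.3 and 70.6. Without centring the ERKi libraries held 72.7 and 77.6 there, a difference of 0.14 (adjusted p = 0.587, edgeR). Hif1a, the gene of the HIF1 subunit that oxygen controls, had 5 lower peaks and 1 higher one. Of the strongest peaks of the 18 genes, 4 rose and 2 fell, with a median of 0.53. The median over all 116 peaks was 0.06 and within GC bins -0.02.

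Genes bound by LXR and Rev-erb, nuclear receptors that recruit NCoR, did not move together. LXR and lipogenic genes had 4 higher and 8 lower of 117 peaks (3.42% and 6.84%). The strongest peak of Abca1, the cholesterol efflux gene, held 379 and 383 tags per 10 M with Veh, 373 and 336 with KLA and 440 and 421 with ERKi (0.28, SE 0.14, adjusted p = 0.209, edgeR), while 2 other Abca1 peaks fell. The promoter peak of Apoc1, an apolipoprotein gene, went from 118 and 167 with Veh to 52.6 and 36.7 with KLA and 1.96 and 1.99 with ERKi, which is 1 tag in each ERKi library (-4.40, SE 0.73, adjusted p = 0.0073, edgeR).

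Clock and Rev-erb genes had 6 higher and 3 lower of 84 peaks (7.14% and 3.57%), and a median of 0.30 that was 0.10 within GC bins. At the promoter of Arntl, the clock activator gene that Rev-erb represses through NCoR, the levels were 344 and 380 with Veh and 68.8 and 73.3 with KLA. With ERKi they were 201 and 148 after centring, a rise of 1.29 over KLA (SE 0.24, adjusted p = 0.0103, edgeR) to below the Veh level. Without centring the ERKi libraries held 87.1 and 63.8, and the Arntl peak did not differ from KLA (0.08, adjusted p = 0.759, edgeR). The peak at -1447 bases from the start of Npas2, another Rev-erb target, went from 435 and 455 with Veh to 12.2 and 14.5 with KLA and 64.5 and 37.9 with ERKi (1.93, SE 0.49, adjusted p = 0.0302, edgeR). The strongest Npas2 peak did not differ (0.07).

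Osteoclast genes had 11 higher and 8 lower of 143 peaks (7.69% and 5.59%). A peak at the start of Acp5 (chr9:22131196-22131438), the gene of the osteoclast enzyme TRAP, held 59.7 and 38.8 tags per 10 M with Veh, 13.8 and 12.5 with KLA and 129 and 124 with ERKi, a rise of 3.26 (SE 0.34, adjusted p = 0.00162, edgeR) and of 2.05 without centring. An intronic peak of Atp6v0d2, a proton pump subunit gene, fell from 112 and 115 to 33.2 and 35.9 (-1.71, SE 0.30, adjusted p = 0.00877, edgeR), and Veh had 157 and 179. Macrophage lineage genes had 15 higher and 16 lower of 372 peaks (4.03% and 4.30%) and a median of -0.07, near that of all peaks. Spi1, the gene of PU.1, had 3 higher and 0 lower peaks. Nearest to Tlr4, the receptor gene, 3 intergenic peaks fell and 0 rose, at 551881 to 630600 bases from its start. Genes of the NCoR complex and its partners had 7 higher and 9 lower of 167 peaks (4.19% and 5.39%), with a median of -0.13. Of the lower ones, 5 were nearest to Tbl1xr1, which encodes a subunit of the complex. The promoter peak of Tbl1xr1 fell (-2.28), and the other lower ones lay -79080 to -269989 bases from its start. Another peak nearest to Tbl1xr1, at -126951 bases, rose (3.22). The peak at the promoter of Ncor1 itself did not pass the test (1.27, SE 0.50, adjusted p = 0.117, edgeR). The list of ribosomal protein genes, matched by symbols that start with Rpl or Rps and a digit, had 8 higher and 4 lower of 165 peaks (4.85% and 2.42%). Their median was 0.14. This match also took in Rps6ka3, a kinase gene. The strongest peak nearest to Rps6ka3, at -110947 bases from its start, was among the 8 that rose (1.08). Of the 63 strongest peaks in the list 5 rose, the Rps6ka3 peak included, and 0 fell.

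Of the 161 list peaks that rose, 35 were also called higher on library totals, and 110 within GC bins. All 86 that fell were called lower on library totals and 62 within GC bins.

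PGC1β binding offered a comparison with a control of the same date. The PGC1β libraries with ERKi and KLA and those with DMSO and KLA, 2 each, all carry the later date, and the median PGC1β peak differed by -0.20 log2 between them before centring. Of 53474 PGC1β peaks, 135 were called (0.252%), 87 higher (0.163%) and 48 lower (0.0898%). At an unadjusted p under 0.05 there were 6838. Leaving out 1 library left 8 or 36 calls without a DMSO and KLA library and 4 or 7 without an ERKi library, and a DESeq2 Wald test gave 560. Under ERKi the labels list 1 shared pair of input samples for NCoR and PGC1β, so these libraries may come from the same cells, while the KLA controls of the 2 antibodies are different libraries.

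At PGC1β peaks within 500 bp of NCoR-higher peaks (1934 of 2963, 65.3%) the median PGC1β difference was 0.67, and it was above 0 at 1541 (79.7%), with 17 called higher and 0 lower. At those near NCoR-lower peaks (1276 of 2476, 51.5%) it was -0.84 and below 0 at 1070, with 0 called higher and 16 lower. Over all 36324 matched NCoR peaks the median was -0.03. PGC1β differences also went with GC content, from -0.27 below 40% to 0.12 at 52% or more over all matched peaks, but in each of 5 GC classes the NCoR-higher peaks had a median of at least 0.60 and the NCoR-lower peaks one of at most -0.44. In the other direction, 53 of the 58 PGC1β-higher peaks with an NCoR peak had an NCoR difference above 0, and all 44 PGC1β-lower peaks with one had an NCoR difference below 0.

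In the Asap1 intron PGC1β held 17.8 and 22.3 tags per 10 M with DMSO and KLA and 144 and 127 with ERKi (2.73, SE 0.52, adjusted p = 0.0217, edgeR). In the Hk2 intron it held 19.7 and 28.3 against 115 and 122 (2.28, SE 0.53, adjusted p = 0.0585, edgeR), which missed the threshold. In the Atp6v0d2 intron PGC1β held 75 and 41.7 against 5.41 and 4.47 (-3.51, SE 0.64, adjusted p = 0.0173, edgeR). In the St6gal1 intron it fell from 98.7 and 95.3 to 19.8 and 17.9 (-2.35, SE 0.41, adjusted p = 0.0155, edgeR). Of the 8 higher NCoR peaks with the lowest p, 7 had a PGC1β difference above 0, the exception being Itgav (-0.01), and 7 of the 8 lower ones a difference below 0, the exception being 1700016G22Rik (1.01). At the 1117 H3K27ac-gained NCoR and HDAC3 sites with a PGC1β peak, the PGC1β median was 0.21, with 0 called in either direction.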

How the data were processed

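NCoR ChIP-seq tags were analysed as the authors deposited them: raw counts per peak, at most 3 tags per position, with each library's total in the file headers. Per the labels and methods, reads were aligned to mm10 with Bowtie2, peaks were called with HOMER, kept where replicates agreed by IDR and merged over conditions. Versions are not given in the sources used here.

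Counts were tested with edgeR 4.0.16 (quasi-likelihood, R 4.3.3), in the 4 NCoR libraries alone. Library sizes were the header totals, centred so that the median peak had no difference. PGC1β was fitted over the 6 libraries of its table. DESeq2 1.42.0 was an alternative. Levels are tags per 10 M. GC content, motifs and sequences were read from the mm10 (GRCm38) reference with pysam 0.24.0, and 7 peaks outside the reference chromosomes had no window. The NCoR fit was tested on simulated data. Classes from other factors used library totals without centring, at least 4 tags (16 for H3K27ac) and the same thresholds. The H3K27ac fit held wild-type and NKO libraries with Veh and KLA, and its contrast was wild-type KLA against wild-type Veh. Per the study's supplement, Ncor floxed mice served as wild type for the NKO mice.

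The text names the 8 peaks in each direction with the lowest p, the strongest peak of the listed genes past the test, and a set of loci. One of the lower peaks is not reported here. The peaks, gene lists, tests and motifs were chosen with earlier results of these data known. The replicate numbers did not pair the samples (correlation of same-numbered deviations 0.003).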

Additional observations from a re-analysis of the deposited data

How the results depend on the processing

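On library totals without centring the test called 30912 peaks (495 up, 30417 down), where the centred fit called 5439. The median at H3K27ac-gained NCoR and HDAC3 sites was then -0.95. Class medians turned to -0.91 (HDAC3 lost), -0.98 (ERK1 lost), -0.98 (PGC1β lost), -1.06 (p300 lost), -0.97 (p65 lost), -0.96 (Fosl2 lost), -1.01 (PU.1 lost), -0.94 (H3K27ac gained), -1.11 (H3K27ac lost, with or without HDAC3) and -1.01 (promoters). On that scale single peaks turned to -0.93 (Abca1), -0.0252 (Ccl5), -0.42 (Ccl9), -1.20 (Csf1r), -0.63 (Cx3cr1), -0.87 (Dusp6), -0.62 (Egr1), -0.50 (Fads1), -0.46 (Fos), -0.40 (Ier3), -0.51 (Il1b), -0.32 (Mafk), -0.31 (Mitf), -0.49 (Nlrp3), -1.14 (Npas2), -0.82 (Nr1d1), -0.32 (Oasl1), -0.25 (Oasl2), -0.13 (Rpl41), -0.13 (Rps6ka3), -0.94 (Tnf), -0.33 (Tnfaip2) and -0.22 (Traf5).

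Within GC bins, ERK1-gained sites had a median of 0.0118, Fosl2-gained sites 0.00398 and the H3K27ac-gained NCoR and HDAC3 sites 0.12, and Tnf was at -0.15. The median at those H3K27ac-gained sites was 0.28 at a distance of 100 bp, 0.29 for distal peaks, 0.21 with loess centring and 0.23 to 0.27 without 1 library. The Csf1r peak (0.01) turned to -0.0157 with TMM, -0.0202 with DESeq2 size factors, -0.0207 with a Wald test, -0.0417 among stronger peaks, -0.0784 with loess and -0.45 within GC bins, and lay between -0.11 and 0.149 without 1 library. Stronger peaks alone gave 3578 calls, 1570 of them higher. A test against a 2-fold change (glmTreat) gave 197 calls, 134 higher and 63 lower.

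With the replicate number as a block 4263 peaks were called, and with the block and GC bins together 3443, of which 1357 were lower, with Csf1r at -0.42 and Tnf at -0.13. The block left 74 PGC1β calls. Leaving out 1 library gave 772 to 13131 calls, 515 to 6081 higher and 257 to 7050 lower, and 4 to 36 PGC1β calls, with the lone library taken to vary like the other groups. A DESeq2 Wald test called 560 PGC1β peaks. The causes of these changes were not tested. With 2 libraries a group and a median of 20 and 21 tags per peak with ERKi, weak peaks carry wide errors, and date, solvent, sex and inhibitor cannot be told apart. The autosomal fit was added after the data were seen.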
